A study of Homo sapiens with 12 samples.

Results

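CD24 was followed across all 12 arrays of an experiment on A2058, an established human melanoma cell line. The gene was represented by 1 probe set (17117110, NCBI gene ID 100133941, RefSeq transcript NM_013230) of 29396 on the array, and it was 1 of 14580 genes with a symbol. It was selected on its measured log2 changes from the control, which were positive under each of the 3 treatments, so these differences from the control are given below as a description, with no test. The 4 groups of 3 arrays all came from A2058 cells that were treated for 24 h. One group received DMSO, the vehicle. A second received dabrafenib at 100 nM with trametinib at 10 nM (DT), a RAF kinase inhibitor and a MEK inhibitor that together block the MAPK pathway. Another received entinostat at 1 µM (E), an inhibitor of class I histone deacetylases, and the last received all 3 agents (DTE). The sample titles describe biological replicates whereas the series' design text describes technical ones, so the p-values speak only for the variation from array to array, whose source may be technical.

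CD24 is a small surface protein made of a short peptide core that is densely covered with sugars and tied to the outer membrane by a glycosylphosphatidylinositol (GPI) anchor. Having no cytoplasmic tail, it acts through partners in membrane rafts, among them Src family kinases, and its sugars carry the sites that other cells recognise. P-selectin on endothelium and platelets and Siglec-10 on macrophages are well known receptors, and the binding of Siglec-10 restrains phagocytosis of tumour cells. CD24 is best known as a marker of immature B cells, neuronal progenitors and epithelial progenitors, and in cell sorting it is commonly read together with CD44. In bulk samples of a cell line such as these, a change in the share of cells that carry a transcript and a change in its RNA per cell cannot be told apart.

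The RefSeq table of start regions (GRCh38.p14) holds 3 starts for CD24, all on the minus strand of chromosome 6. The 250 bases before the outermost start are shown as the upstream edge of the listed gene. Which start the measured transcript used was not tested, and of the other windows 1 held both a GC box and an E-box (CANNTG). The bases shown lie upstream of the annotated gene, and the capitals mark the 1 GC box, GGGCGG, the motif bound by Sp1-type factors.
CD24 upstream region, chr6:106975628-106975877, minus strand: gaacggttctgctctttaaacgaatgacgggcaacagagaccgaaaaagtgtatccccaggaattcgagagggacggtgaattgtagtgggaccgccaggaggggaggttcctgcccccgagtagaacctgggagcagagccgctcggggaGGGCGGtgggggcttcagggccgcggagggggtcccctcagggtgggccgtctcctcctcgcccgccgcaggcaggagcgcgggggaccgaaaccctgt
The window held 65.6% G and C and 20 CpG dinucleotides, against medians of 58.0% and 11 over the 35116 upstream windows of the same length in that table. A GC box on either strand was present in 42.6% of those windows. The window shown held 0 matches, on either strand, to the TATA box (TATAAA, in 10.7% of windows) or the E-box (CANNTG, in 61.8%). It likewise held 0 to the core ACGTG (in 18.5%, overlapping the E-box where the letters are CACGTG) and the AP-1 site (TGANTCA, in 6.57%). These are matches of letters in 1 window, and no binding or chromatin at CD24 was measured.

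Some facts of the whole series bear on CD24. The median log2 gene value of an array averaged 4.68 ± 0.111 (SD, n = 3) for DMSO, 4.66 ± 0.0448 for DTE, 4.48 ± 0.106 for DT and 4.88 ± 0.0168 for E. Comparisons between groups therefore depend in part on whether the arrays are taken as deposited, quantile-normalized or centred on their medians, and values under the other scalings are given beside the main results whose call they change. DUSP6, a phosphatase that ERK signalling itself induces, served as a check of the labels. Its log2 signal was 8.72 ± 0.21 in DMSO and 9.24 ± 0.15 in E, but 4.25 ± 0.20 in DT and 3.88 ± 0.49 in DTE, so it was low in both groups given the MAPK pathway inhibitors. Among 9 measured genes of ERK output, all 9 fell in DT and all 9 in DTE, while 1 rose and 1 fell in E (limma, Benjamini-Hochberg adjusted p under 0.05 over 14580 genes, here and below). Over all genes, 3.23% were called higher and 24.1% lower in DT, 12.5% higher and 3.54% lower in E, and 9.64% higher and 22.5% lower in DTE. After quantile normalization the shares were 8.55% and 7.86% in DT, 9.67% and 8.45% in E, and 14.2% and 14.2% in DTE, and after median centring they were 7.53% and 16.3% in E.

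By CD24 signal the groups stood in the order DMSO lowest, then DT, then E, and DTE highest. The intensities were 15.0, 13.0 and 18.4 in the 3 DMSO arrays and 104, 128 and 98.3 in the DT arrays. They were 155, 169 and 178 in the E arrays and 377, 466 and 489 in the DTE arrays. No array of one group overlapped the arrays of another. The mean log2 signal was 3.93 ± 0.25 (SD, n = 3) for DMSO, 6.77 ± 0.20 for DT, 7.39 ± 0.10 for E and 8.79 ± 0.20 for DTE, and the SD pooled over the 4 groups was 0.197. In DMSO the gene lay at percentile 40.0 of all genes and above their lower quartile (2.98). It lay at percentile 82.2 in DT, 84.5 in E and 97.1 in DTE, so a gene in the dimmer part of the range under DMSO stood among the brighter genes in each treated group. Whether the DMSO signal itself lay above background was not tested. The fold differences from DMSO given below, and the product of the separate changes, rest on this low level, so their size is uncertain.

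**Figure D1:**
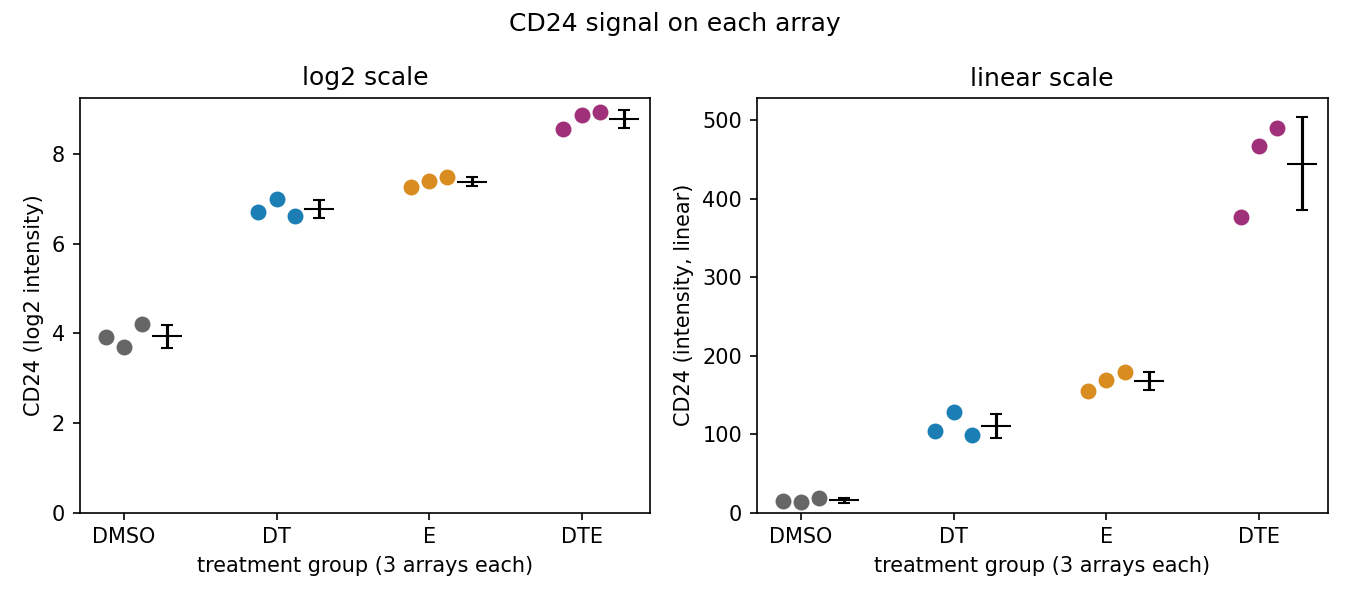
CD24 signal on each of the 12 arrays by treatment group, as log2 intensity (left) and linear intensity (right), with points for arrays and bars for the mean ± SD of 3 arrays. The 3 DMSO arrays sit between 13.0 and 18.4 on the linear scale, and the DTE arrays, between 377 and 489, lie above all others.

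Against DMSO, which the choice of the gene had used, CD24 was 2.84 higher in DT on the log2 scale (SE 0.15, 95% confidence interval 2.53 to 3.15), a 7.16-fold difference. In E it was 3.45 higher (SE 0.15, interval 3.14 to 3.76), or 10.9-fold. In DTE it was 4.85 higher (SE 0.15, interval 4.54 to 5.16), or 28.9-fold. By size these were the 2nd largest positive change among 14580 genes in DT, the 2nd largest in E and the largest in DTE, and the 3 ranks were the same after quantile normalization and after median centring. The differences were 3.05, 3.24 and 4.96 after quantile normalization and 3.04, 3.25 and 4.88 after median centring.

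The treated groups were also compared with each other. These comparisons use no DMSO array, although the treated arrays too had entered the choice of the gene. DTE exceeded DT by 2.01 (SE 0.15, interval 1.70 to 2.32, adjusted p = 4.03e-08 by limma), a 4.03-fold difference with all 3 DTE arrays above all 3 DT arrays. This was the 26th largest positive difference in a comparison where 13.8% of genes were called higher and 5.09% lower. DTE exceeded E by 1.40 (SE 0.15, interval 1.09 to 1.71, adjusted p = 2.64e-06 by limma), or 2.64-fold, again with all 3 arrays above. Here CD24 ranked 15th, and 2.08% of genes were called higher against 22.4% lower. On these arrays CD24 was higher with all 3 agents than with either treatment given alone, by more than the spread between them. Because the same arrays had entered the choice of the gene, the p-values are not independent of that choice. Both calls held under quantile normalization, where the differences were 1.92 (adjusted p = 5.47e-07) and 1.73 (adjusted p = 1.75e-06), and under median centring.

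The order of the other two treated groups was less firm. E exceeded DT by 0.61 (SE 0.15, interval 0.30 to 0.92, adjusted p = 0.00324 by limma), or 1.53-fold, in a comparison where 36.1% of genes were called higher and 3.44% lower. After quantile normalization the difference was 0.19 (adjusted p = 0.372) and after median centring 0.21 (adjusted p = 0.276). The call was lost under both, so the size of the difference and its call depended on the scaling. All 3 E arrays still lay above all 3 DT arrays under both, narrowly after centring (lowest E array 7.08, highest DT array 7.07).

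The combination was also set against the sum of the separate changes. On the log2 scale DTE lay 1.44 below the level that adding the DT and E changes would give (difference -1.44, SE 0.21, interval -1.88 to -0.997), the 8th lowest such value of all genes. As fold changes, the product of the separate changes was 77.3 and the change measured in DTE was 28.7, both from the means of the linear intensities. On the linear scale itself the relation turned: intensity rose by 94.7 in DT and by 152 in E, which sum to 247, whereas it rose by 429 in DTE. The combined level was therefore below multiplicative and above additive. These values are built from the differences that chose the gene and are given with no test.

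**Figure D2:**
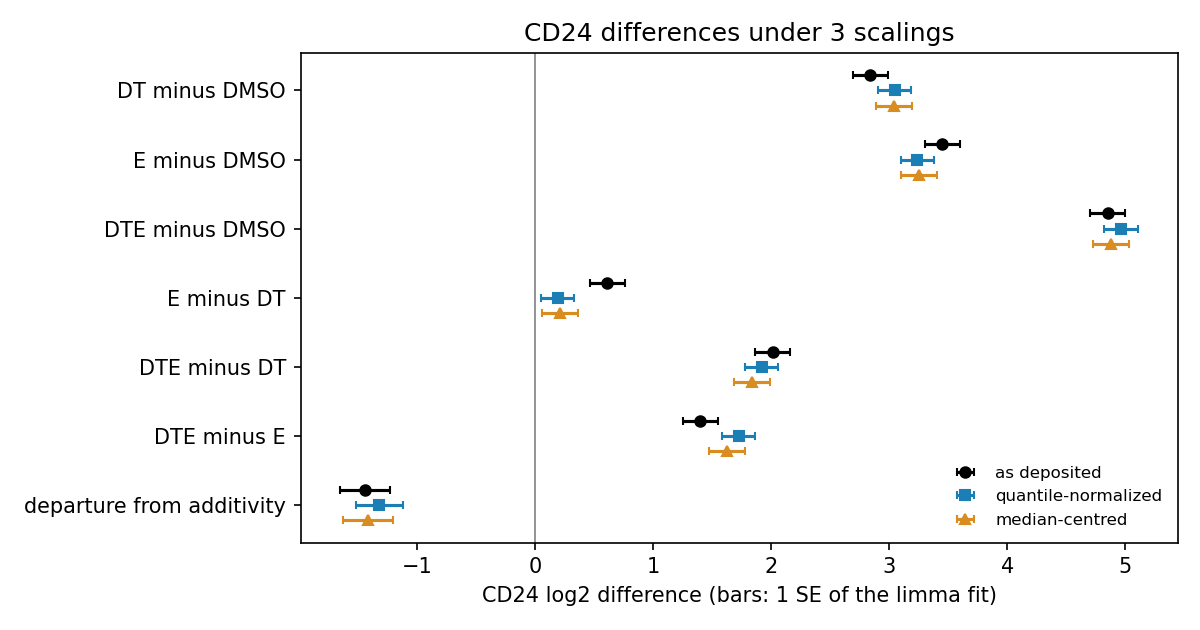
CD24 log2 differences for the 6 comparisons between groups and the departure from additivity, as deposited (circles), after quantile normalization (squares) and after median centring (triangles), with bars of 1 SE of the limma fit. The E minus DT difference falls from 0.61 to about 0.19 and 0.21 under the other scalings, while the other differences stay on the same side of 0.

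The genes whose pattern was most like CD24 were found by the root-mean-square difference (RMS) in log2 change from the own DMSO mean over the 9 treated arrays, as a description of these arrays. The nearest was PCDH10, a protocadherin of cell adhesion, at an RMS of 1.75, so no other named gene came within a log2 unit of CD24. PCDH10 stood at log2 3.71, 3.85 and 3.45 in DMSO, 5.10, 5.11 and 5.20 in DT, 5.77, 5.46 and 5.31 in E, and 6.27, 6.38 and 6.47 in DTE. As deposited, its groups followed the same order as those of CD24, and the changes from DMSO were smaller, at 1.47 in DT, 1.84 in E and 2.70 in DTE. After quantile normalization and after median centring, PCDH10 no longer stood higher in E than in DT, whereas the mean of CD24 still did.

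Next came BMP6, a secreted growth factor (RMS 1.78), PI15, a secreted peptidase inhibitor (1.88), SESN3, a stress-response sestrin (1.89), A2M, a broad protease inhibitor (1.95), and ERBB4, a receptor tyrosine kinase (2.02). BMP6 changed by 0.34 in DT, 2.99 in E and 3.10 in DTE, so it came near CD24 in E and lay below it in DT and DTE. PI15 changed by 1.66, 1.01 and 3.10 and SESN3 by 1.75, 1.44 and 2.50, in that order of groups. As deposited, these were the only 2 of the 10 nearest genes that stood higher in DT than in E. After quantile normalization PCDH10 (1.66 in DT, 1.63 in E) and A2M (1.09 and 0.98) did so too. Both also did so after median centring (1.67 and 1.65 for PCDH10, 1.07 and 0.97 for A2M). A2M changed by 0.86, 1.17 and 3.33, a DTE change above the sum of the other two, unlike that of CD24. As deposited, the DTE changes of PI15 and ERBB4 also lay above the sum of their DT and E changes.

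The last 4 of the 10 were KIF5C, a kinesin of neurons (RMS 2.07), EEF1A2, a translation elongation factor of muscle and neurons (2.12), USP2, a deubiquitinase (2.15), and JUP, the junction protein plakoglobin (2.18). KIF5C changed by -0.06 in DT, 3.01 in E and 2.82 in DTE, and JUP by 0.38, 2.19 and 2.30. In all 4 of these genes the E and DTE changes were larger than the DT change. Under quantile normalization PCDH10 and BMP6 kept places 1 and 2, and USP2 and JUP moved to 15 and 11.

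**Figure D3:**
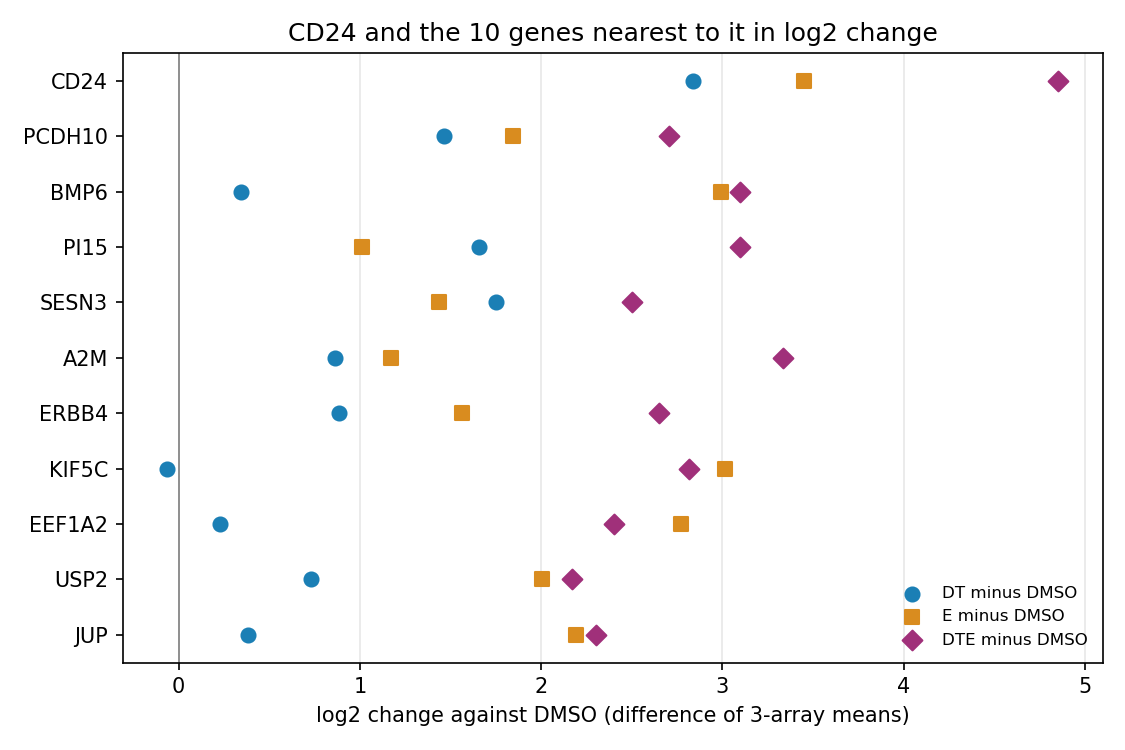
Log2 change against DMSO (difference of 3-array means) for CD24 and the 10 genes nearest to it, with circles for DT, squares for E and diamonds for DTE. CD24 lies to the right of every listed gene in all 3 comparisons, and the lower genes, such as KIF5C at -0.06, show little change in DT.

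The measured protein-coding genes beside CD24 on the chromosome, 5 on each side in the RefSeq gene order, showed no such pattern. In DT 0 of 10 were called higher and 5 lower (median -0.36), in E 2 higher and 0 lower (median 0.20), and in DTE 1 higher and 2 lower (median -0.08). Over all genes the medians were -0.17, 0.07 and -0.11. The shares of all genes called higher and lower were 3.23% and 24.1% in DT, 12.5% and 3.54% in E, and 9.64% and 22.5% in DTE. After quantile normalization the counts became 0 and 2 in DT, 2 and 1 in E, and 4 and 1 in DTE. The nearest gene on one side, QRSL1, a subunit of the mitochondrial amidotransferase, stood at 7.69 ± 0.12 in DMSO and 7.24 ± 0.31 in DTE. The nearest on the other, MTRES1, a mitochondrial transcription rescue factor, rose by 0.60 in E (adjusted p = 0.0064), a call lost after median centring.

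CRYBG1, a beta/gamma crystallin domain protein, differed most among these neighbours, and in another way than CD24. Its log2 signal was 5.32, 5.45 and 5.14 in DMSO, 3.66, 3.60 and 3.84 in DT, 6.42, 6.67 and 6.52 in E, and 5.54, 5.37 and 5.97 in DTE. All DT arrays were below and all E arrays above the DMSO arrays, and the DTE arrays overlapped them. It fell by 1.60 in DT (adjusted p = 2.6e-07) and rose by 1.23 in E (adjusted p = 1.1e-05), and it stood at 0.32 in DTE (adjusted p = 0.11; 0.44 and called after quantile normalization). The autophagy gene ATG5 fell by 0.73 in DT (adjusted p = 0.00046), and SCML4 lay below the lower quartile of genes in all 4 groups.

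**Figure D4:**
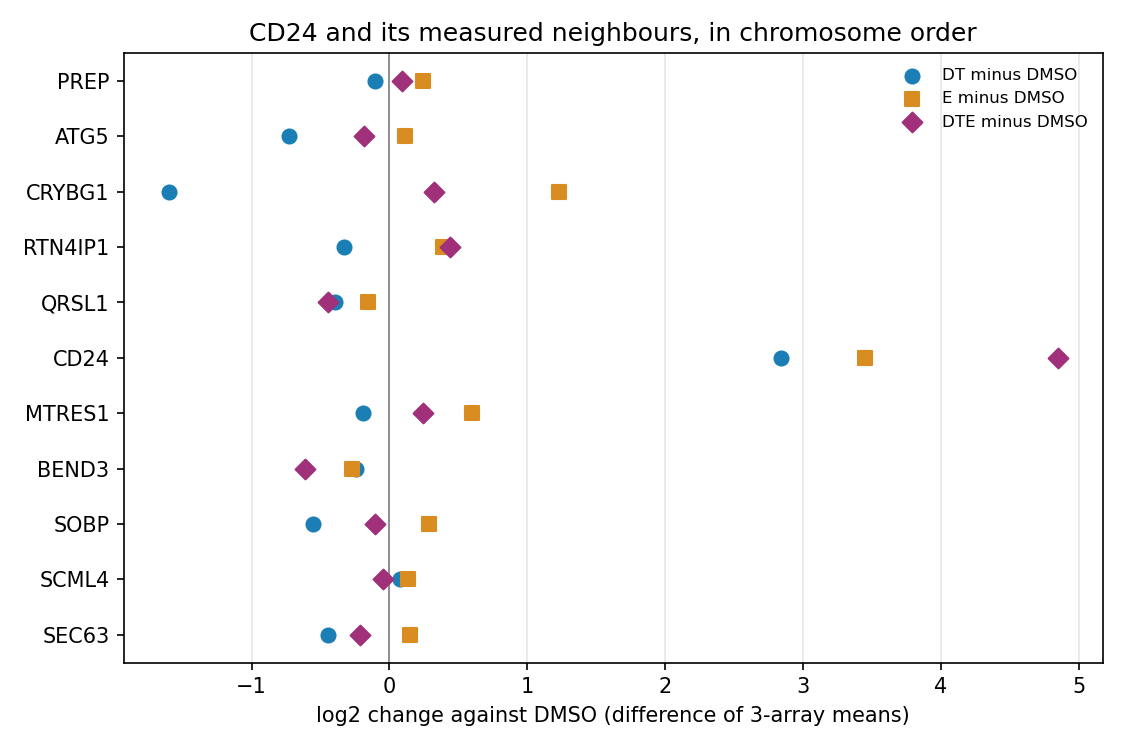
Log2 change against DMSO for CD24 and its 10 nearest measured protein-coding neighbours in chromosome order, with circles for DT, squares for E and diamonds for DTE. The neighbours lie between -1.60 and 1.23, while CD24 lies at 2.84, 3.45 and 4.85.

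Of the 9 listed partners of CD24, 7 were measured, and 2 rose and 1 fell in DT, 2 rose and 0 fell in E, and 2 rose and 2 fell in DTE. After quantile normalization the counts were 2 and 1 in DT, 2 and 1 in E, and 2 and 0 in DTE. As deposited, 3.23% of all genes rose and 24.1% fell in DT, 12.5% and 3.54% in E, and 9.64% and 22.5% in DTE. As deposited, the 2 that rose in each group were CNTN1 and L1CAM, both neural adhesion molecules of the immunoglobulin superfamily. CNTN1, contactin 1, which is itself GPI-anchored, stood at 5.26, 5.40 and 5.10 in DMSO, 5.77, 6.003 and 5.95 in DT, 6.54, 6.56 and 6.69 in E, and 6.71, 7.01 and 7.18 in DTE. Its groups followed the order of those of CD24 with no overlap of arrays. It rose by 0.65 in DT (adjusted p = 0.0014), 1.34 in E (adjusted p = 1.6e-06) and 1.71 in DTE (adjusted p = 3.6e-08).

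Between treated groups CNTN1 was 1.06 higher in DTE than in DT (adjusted p = 1.7e-05), while its DTE minus E difference of 0.37 just missed the threshold (adjusted p = 0.055) and passed it after quantile normalization (0.68, adjusted p = 0.00029). L1CAM rose by 0.41 in DT (adjusted p = 0.027), 0.74 in E and 0.80 in DTE. The call in DT was lost without DMSO replicate 3, DT replicate 2 or DT replicate 3. HMGB1, a nuclear protein released by damaged cells that binds CD24, fell by 0.67 in DT (adjusted p = 0.0029) and by 0.50 in DTE (adjusted p = 0.015). The DTE call was lost after quantile normalization and without DMSO replicate 2 or DTE replicate 1, and HMGB1 stood at -0.26 in E (adjusted p = 0.28; -0.35 and called after quantile normalization). CNTN2, another contactin, fell by 0.42 in DTE (adjusted p = 0.045), a call lost under both other scalings and without any one of the 3 DMSO and 3 DTE arrays, DT replicate 1 or E replicate 2. SIGLEC10, the macrophage receptor, stood at 3.65 ± 0.19 in DMSO and was not called in any treatment, with changes of -0.06, 0.18 and 0.06 in DT, E and DTE.

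In the list of phagocytosis checkpoint genes, 10 of 13 were measured, and 2 rose and 3 fell in DT, 3 rose and 1 fell in E, and 3 rose and 2 fell in DTE. Rises and falls made up 3.23% and 24.1% of all genes in DT, 12.5% and 3.54% in E, and 9.64% and 22.5% in DTE. CD274, which encodes the checkpoint ligand PD-L1, had log2 values of 4.92, 4.93 and 4.80 in DMSO, 2.95, 3.66 and 3.31 in DT, 6.89, 6.59 and 6.69 in E, and 5.25, 5.50 and 5.71 in DTE. The 4 groups did not overlap, and DT lay below DMSO, in contrast to CD24. CD274 fell by 1.57 in DT (adjusted p = 1.1e-06), rose by 1.84 in E (adjusted p = 3.2e-07) and rose by 0.60 in DTE (adjusted p = 0.0076).

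CD47, the ligand that signals through SIRPA to restrain macrophages, rose by 0.53 in E (adjusted p = 0.011, lost after median centring) and by 0.52 in DTE (adjusted p = 0.006), and stood at -0.12 in DT. SIRPA itself rose by 1.01 in DT (adjusted p = 3.4e-06) and stood at 0.02 in DTE (0.28 and called after quantile normalization). LRP1, a receptor for calreticulin that promotes uptake, rose in all 3, by 0.36 in DT, 0.96 in E and 0.86 in DTE, although its DT call (adjusted p = 0.037) was lost when any one of DMSO replicates 1 and 3 or the DT arrays was left out. PDCD1LG2, which encodes PD-L2, fell by 1.85 in DT, 0.54 in E and 1.89 in DTE. STC1, a secreted glycoprotein, fell by 3.84 in DT (adjusted p = 2.1e-12) and by 3.30 in DTE (adjusted p = 1.6e-11). Genes of this list moved in both directions. The list holds genes that restrain uptake and genes that promote it, so a common rise was not to be expected of it.

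Among 10 measured Src family kinases and raft scaffolds, of 14 listed, 0 rose and 4 fell in DT (1 fell after quantile normalization), 1 rose and 0 fell in E, and 0 rose and 3 fell in DTE. Falls were called for 24.1% of all genes in DT and 22.5% in DTE, and rises for 12.5% in E. LYN, a Src family kinase that associates with CD24 in rafts, stood at 8.19, 8.43 and 8.28 in DMSO and at 7.30, 7.32 and 7.18 in DT. It was 7.36, 7.59 and 7.64 in DTE, so all 6 arrays with the MAPK inhibitors lay below all DMSO arrays. It fell by 1.03 in DT (adjusted p = 4.8e-06) and 0.77 in DTE (adjusted p = 8.7e-05), and stood at 0.12 in E. CSK, the kinase that restrains the Src family, fell by 0.75 in DTE (adjusted p = 0.0002). The 1 gene that rose in E was the Src family kinase YES1 (0.43, adjusted p = 0.026), a call lost after median centring and without DMSO replicate 1 or 3 or E replicate 2 or 3.

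Of the enzymes that build and attach the GPI anchor, 7 of 30 listed were measured, and 0 rose and 1 fell in DT, 1 rose and 0 fell in E, and 0 rose and 2 fell in DTE. After quantile normalization 2 rose and 1 fell in DT, and 2 rose and 0 fell in DTE. As deposited, 24.1% of all genes fell in DT and 22.5% in DTE, and 12.5% rose in E. PGAP1, which trims the anchor's lipid after attachment, accounted for the fall in DT (-0.79, adjusted p = 0.0011) and the rise in E (0.65, adjusted p = 0.0076). GPAA1, a subunit of the transamidase that attaches the anchor, fell by 0.56 in DTE (adjusted p = 0.0042), a call lost after quantile normalization.

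Other GPI-anchored proteins gave the widest comparison, with 55 of 68 listed genes measured. In E 19 rose and 0 fell (15 and 0 after quantile normalization, 14 and 4 after median centring), with a median of 0.26 beside 0.07 for all genes. In DT 3 rose and 12 fell (10 and 8 after quantile normalization), with a median of -0.15 beside -0.17. In DTE 16 rose and 7 fell (18 and 4 after quantile normalization), with a median of 0.07 beside -0.11. The 19 that rose in E were 34.5% of the list, against 12.5% of all genes. The largest of these rises were smaller than the 3.45 of CD24.

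EFNA3, an ephrin that signals between cells, rose by 2.06 in E (adjusted p = 7.1e-08) and 2.31 in DTE (adjusted p = 7.3e-09), from 4.16 ± 0.12 in DMSO. CPM, a membrane carboxypeptidase, rose by 1.66 in E (adjusted p = 2.3e-07) and 2.12 in DTE (adjusted p = 5.1e-09). In DT these stood at 0.20 (adjusted p = 0.4) and 0.33 (adjusted p = 0.097), the latter called after quantile normalization (0.54). ULBP3, a ligand of the natural killer receptor NKG2D, fell by 0.49 in DT (lost after quantile normalization and after median centring) and rose by 1.29 in E and 1.17 in DTE. In the other direction PRNP, the prion protein gene, fell by 2.18 in DT (adjusted p = 5.1e-10) and 1.90 in DTE (adjusted p = 4.4e-09), and stood at -0.03 in E.

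In DT 3 of these 55 genes rose, 5.45% against 3.23% of all genes (10 of the 55 after quantile normalization): EFNA1 (0.89, adjusted p = 3.2e-05), CNTN1, which is also on the list of partners, and GPC1, a glypican (0.57, adjusted p = 0.0057). EFNA1 rose by 0.82 in DTE as well and stood at 0.19 in E (adjusted p = 0.34). As deposited, CNTN1 was called higher in all 3 treatments and no other measured gene of this list was. After quantile normalization EFNA4, GFRA1, NRN1 and CPM were called higher in all 3 as well.

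The sugars of CD24 are made by enzymes of mucin-type O-glycosylation and of sialylation. Of 18 measured genes of O-glycosylation (25 listed), 1 rose and 6 fell in DT (1 and 3 after quantile normalization), 6 rose and 1 fell in E (5 and 2), and 3 rose and 4 fell in DTE (5 and 3). The shares of all genes that rose and fell were 3.23% and 24.1% in DT, 12.5% and 3.54% in E, and 9.64% and 22.5% in DTE. GALNT3, an enzyme that starts O-glycan chains, stood at 3.15, 3.97 and 3.23 in DMSO, 5.58, 6.08 and 5.45 in DT, 2.82, 2.91 and 2.71 in E, and 3.50, 3.55 and 3.86 in DTE. It was high in DT alone, rising by 2.25 (adjusted p = 1.2e-07), and its E mean of 2.81 lay below the lower quartile of genes there (3.12). GALNT12, of the same family, had the reverse pattern: it fell by 0.63 in DT (adjusted p = 0.0026) and rose by 1.37 in E (adjusted p = 1.8e-06) and 0.66 in DTE (adjusted p = 0.0014).

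Of 10 measured genes of sialylation (31 listed), 0 rose and 3 fell in DT (2 and 1 after quantile normalization), 1 rose and 0 fell in E (0 and 1), and 0 rose and 1 fell in DTE (1 and 2). Beside these, 24.1% of all genes fell in DT and 22.5% in DTE, and 12.5% rose in E. GNE, which makes the first committed precursor of sialic acid, fell by 1.46 in DT (adjusted p = 1.8e-07) and 1.44 in DTE (adjusted p = 2.1e-07), and stood at -0.19 in E (-0.39 and called after median centring). The GNE mean went from 7.91 ± 0.18 in DMSO to 6.45 ± 0.21 in DT and 6.48 ± 0.09 in DTE, while CD24 was higher in both.

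**Figure D5:**
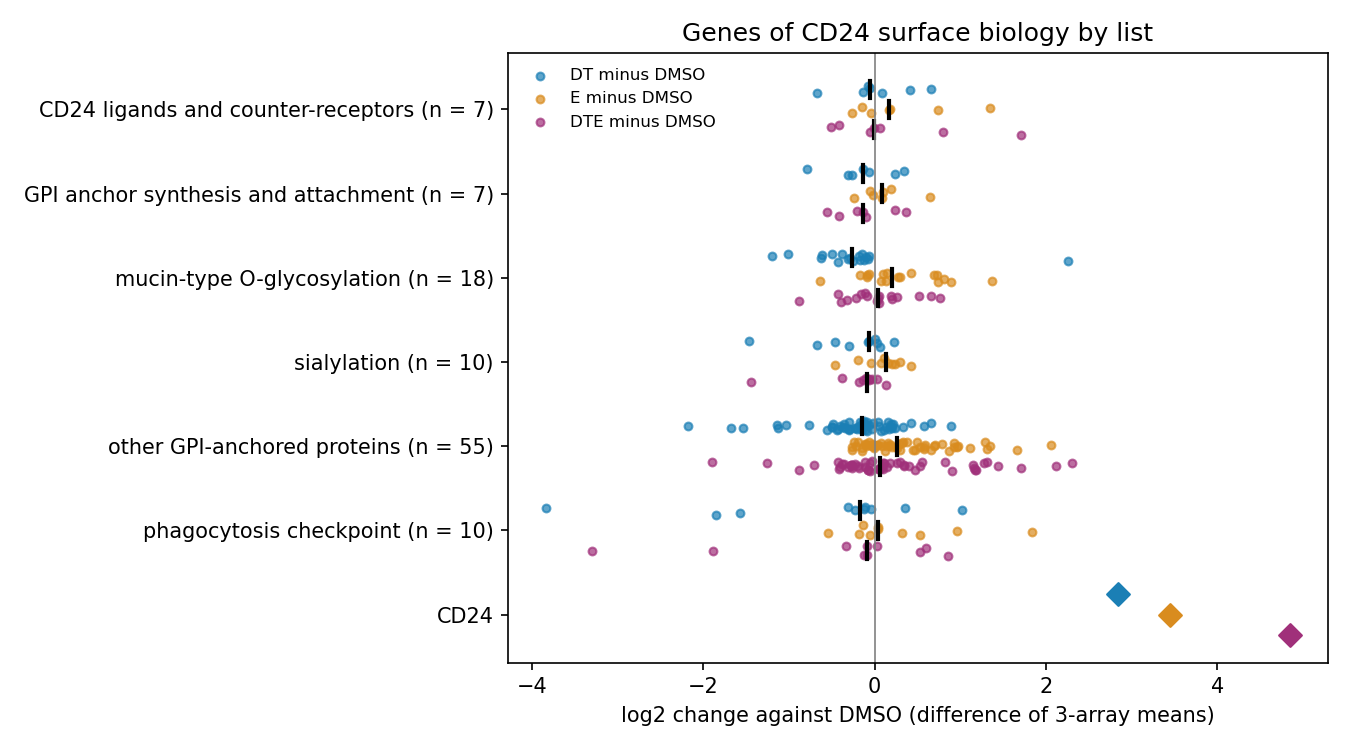
Log2 change against DMSO for each measured gene of the 6 lists named on the axis (the list of Src family kinases and raft scaffolds is not drawn), with vertical bars at list medians and diamonds for CD24 itself. The medians of these 6 lists lie near 0, between -0.27 and 0.26, and the CD24 values of 2.84, 3.45 and 4.85 lie to the right of every listed gene in the same comparison.

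Surface markers that are read together with CD24 in cell sorting were measured for 6 of 11 genes, of which 1 rose and 2 fell in DT, 4 rose and 0 fell in E, and 4 rose and 1 fell in DTE. For all genes the shares were 3.23% and 24.1% in DT, 12.5% and 3.54% in E, and 9.64% and 22.5% in DTE. CD44, the hyaluronan receptor, stood at 7.09, 7.28 and 6.97 in DMSO and 6.09, 6.41 and 6.01 in DT. It stood at 7.31, 7.35 and 7.35 in E and 5.86, 5.93 and 6.08 in DTE, so both groups given the MAPK inhibitors were below the other two. CD44 fell by 0.94 in DT (adjusted p = 3.1e-05) and by 1.16 in DTE (adjusted p = 2.5e-06), and stood at 0.22 in E (adjusted p = 0.29). CD24 was high and CD44 low in DT and DTE, whereas in E CD24 was high without a called change of CD44.

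CD9, a tetraspanin, rose in each treatment, by 0.47 in DT (adjusted p = 0.0082), 1.04 in E (adjusted p = 9.5e-06) and 1.00 in DTE (adjusted p = 6.4e-06). KDM5B, a histone demethylase used to mark slowly cycling melanoma cells, rose by 0.74 in E (adjusted p = 0.0004) and 0.68 in DTE (adjusted p = 0.0004). NGFR, the nerve growth factor receptor, rose by 1.15 in E and by 0.38 in DTE (adjusted p = 0.028), the latter lost without DMSO replicate 1 or 3 or DTE replicate 1 or 2. NGFR fell by 0.48 in DT, a call lost after quantile normalization, after median centring, and without DMSO replicate 2 or DT replicate 1.

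Of 3 reported transcriptional regulators of CD24, 2 were measured, and 0 were called in DT and in E. TWIST1, a transcription factor of mesenchymal states, rose by 0.80 in DTE (adjusted p = 0.0016). ESR1, the oestrogen receptor gene, stood at 3.12 ± 0.18 in DMSO and changed by -0.16, -0.04 and 0.04 in DT, E and DTE, with none called.

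Markers of the cell types in which CD24 is best known were read beside it. Background for the marker counts here and below is the share of all genes that rose and fell. It was 3.23% and 24.1% in DT, 12.5% and 3.54% in E, and 9.64% and 22.5% in DTE. Of 8 measured epithelial markers (10 listed), 1 rose and 2 fell in DT, 3 rose and 0 fell in E, and 2 rose and 1 fell in DTE. Their summed intensity ranged over arrays from 103 to 129 in DMSO, 79.5 to 93.8 in DT, 152 to 174 in E and 96.8 to 110 in DTE, and 4 of the 8 lay below the lower quartile of genes in DMSO. EPCAM, the defining epithelial adhesion molecule, was at 2.93 ± 0.19 in DMSO and 2.93 ± 0.12 in DT. It rose by 0.73 in E (adjusted p = 0.0013) and 0.49 in DTE (adjusted p = 0.013, lost without DMSO replicate 3 or DTE replicate 1). The summed level was thus highest in E, and its part in the CD24 values was not tested.

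Of 3 measured B cell markers (7 listed), 1 rose and 1 fell in DT, 1 rose and 0 fell in E, and 0 were called in DTE. Their summed intensity was 34.1 to 36.6 in DMSO, 27.7 to 34.6 in DT, 50.3 to 64.0 in E and 27.1 to 37.1 in DTE, so it was highest in E. The rise in E was that of CD22, an inhibitory receptor of B cells (0.86, adjusted p = 0.0048). Of 4 measured neutrophil markers (5 listed), 0 were called in any treatment, and 3 of the 4 lay below the lower quartile of genes in all 4 groups. Of 3 measured neuronal progenitor markers (6 listed), 0 were called in DT, 1 fell in E and 1 rose in DTE. Both calls were in SOX2, a stem cell and neural crest transcription factor, which fell by 0.73 in E (adjusted p = 0.00086) and rose by 0.80 in DTE (adjusted p = 0.00017). In DT it stood at 0.27, or 0.64 and called after quantile normalization. The other two, DCX and STMN2, stood below the lower quartile in every group. The summed intensity of these 3 markers was 133 to 143 in DMSO, 152 to 176 in DT, 75.3 to 101 in E and 219 to 250 in DTE. It was highest in DTE, as CD24 was, and lowest in E, where CD24 stood above DMSO. The part of the B cell and neuronal progenitor markers in the CD24 values was not tested.

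The melanoma label was borne out by melanocyte lineage markers, of which 7 of 8 were measured. Their summed intensity was 1658 to 1720 in DMSO, 2761 to 3210 in DT, 1493 to 1652 in E and 1777 to 1909 in DTE, and 0 of the 7 lay below the lower quartile in any group. In DT 4 rose and 0 fell, in E 0 rose and 3 fell, and in DTE 3 rose and 1 fell. MITF, the master regulator of the lineage, rose by 1.36 in DT (adjusted p = 2.6e-06), fell by 0.68 in E (adjusted p = 0.004) and rose by 0.65 in DTE (adjusted p = 0.0028). CD24 was higher in all 3, so its level did not follow MITF across the groups.

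RefSeq lists 5 pseudogenes of CD24, which resemble the gene closely, and 0 of them had a probe set of their own here. Which of these copies the CD24 probe set detects was not tested.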

How the data were processed

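Transcript levels were read on 12 Affymetrix arrays. The deposited values are linear intensities, 1 for each probe set on each array, from 1.88 to 8728. RMA and the Transcriptome Analysis Console are named, without versions, per the submitters' processing notes. Whether a further scaling was applied, and the genome build, are not given in the sources used here, and array medians differed. A spike-in mixture was added before extraction, per the labels' protocols, and was not used here. The number of arrays limits the precision.

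Of 29396 probe sets 14748 carried 1 gene symbol, 0 several and 14648 none. Symbols were updated by NCBI gene ID (14748 matched). For the 156 genes with several probe sets the one with the highest mean was kept, giving 14580 genes with no filter. Log2 intensities were fitted in limma 3.58.1 (R 4.3.3; lmFit, contrasts, eBayes; 8 residual degrees of freedom) over all 12 arrays, with Benjamini-Hochberg adjustment over all genes and calls at an adjusted p under 0.05. On data simulated for DTE minus DT over 14580 genes, 42% of 50 genes changed by a log2 of 0.5 were recovered, 86% at 1, and 100% at 2 and at 3, with 8 false calls.

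Named genes were CD24, the 10 genes nearest to it, its 5 measured neighbours on each side, and members of lists with 10 or fewer measured genes, or of longer lists the 2 largest called changes each way in a comparison. ULBP3 was named after its values were seen. The gene and the lists were chosen with earlier results of these data known, and no list was tested as a set. Sequences are from RefSeq (GRCh38.p14). The protein sequence was not analysed here. Alternatives were quantile normalization, median centring, log2(intensity + 1), a floor of 8, leaving out dim genes, all probe sets, the mean of probe sets, eBayes with trend and robust options, only the groups compared, the replicate number as a block, and leaving out each array.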

Additional observations from a re-analysis of the deposited data

Results flagged for a closer look

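The effect of entinostat differed with and without dabrafenib and trametinib in genes of the lists above, of which 5 are given here. The test was limma's, of that difference itself (E effect with DT minus E effect without, adjusted over all genes). The share of all genes called by it was not determined, so 5 is not read as many or few, and a full list of such genes is not given. In GALNT3, an enzyme of O-glycosylation, the difference was -1.43 on the log2 scale (adjusted p = 0.0132). Its E mean, 2.81, lay below the lower quartile of genes in E, 3.12, so a signal above background in E was not shown and the size of the difference is uncertain. In SIRPA, the receptor of CD47, it was -0.81 (adjusted p = 0.0178). In the other direction, it was 0.93 in GALNT7, of the same family as GALNT3 (adjusted p = 0.0178), 1.28 in NEGR1, a GPI-anchored neuronal growth regulator (adjusted p = 0.0132), and 1.27 in SOX2, a neural crest transcription factor (adjusted p = 0.00215).

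Among the 14648 probe sets without a gene symbol, which entered no comparison above, 3 came closer to the pattern of CD24 than PCDH10 did. Probe set 16998551 exceeded its DMSO mean by a log2 of 1.26 in the DT arrays, 3.98 in the E arrays and 4.24 in the DTE arrays, from a DMSO level of 3.22 (RMS from CD24 1.04). Probe set 16867756 was 1.87, 1.92 and 2.78 higher in the same order, from a DMSO level of 6.50 (RMS 1.59). Probe set 16695262 was 1.87, 1.65 and 2.80 higher, from 3.39 (RMS 1.69). What these probe sets detect was not analysed here.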

How the results depend on the processing

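The CD24 differences kept their direction under all alternatives. The DTE minus DT and DTE minus E calls held in each. Against DMSO, CD24 stood at 3.05 (DT) and 3.24 (E) after quantile normalization and at 3.04 and 3.25 after median centring. E minus DT was 0.19 and 0.21 and lost its call under both. Leaving out 1 array gave 2.72 to 2.97 for DT, 3.33 to 3.58 for E and 4.73 to 4.98 for DTE against DMSO. It gave 0.53 to 0.73 for E minus DT (limma adjusted p 0.00183 to 0.0210), 1.93 to 2.13 for DTE minus DT (3.43e-08 to 1.24e-06), 1.33 to 1.51 for DTE minus E (1.83e-06 to 4.51e-05) and -1.57 to -1.32 for the departure from additivity. The numbers were not taken as pairs, since 3 of 18 same-numbered pairs correlated over 0.1 (-0.0966 to 0.172) where all had to. Still, 9 of 12 arrays correlated best with their own number, a hint from the data and not the design. With the replicate number as a block, the adjusted p was 0.00285 for E minus DT, 1.12e-07 for DTE minus DT and 4.56e-06 for DTE minus E.

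Counts of called genes over the whole array, which serve as background here, moved more, and the cause was not tested. As deposited, 471 genes were higher and 3514 lower in DT, 1825 and 516 in E, and 1405 and 3285 in DTE. Quantile normalization gave 1247 and 1146 in DT, 1232 lower in E and 2064 lower in DTE. Median centring gave 1178 and 1743 in DT and 1098 and 2372 in E. Over all 29396 probe sets, which include those without a symbol, 741 were higher in DT, 2812 in E and 2247 in DTE. E minus DT had 5269 higher and 501 lower as deposited, 1956 and 2136 after quantile normalization, 1844 and 3724 after centring, and 8432 and 763 with all probe sets. DTE minus DT had 2014 and 742, with 1752 and 2245 lower under quantile normalization and centring, and 3132 higher with all probe sets. DTE minus E had 303 and 3271, then 1019 and 851 after quantile normalization, 978 and 1007 after centring, and 484 higher with all probe sets. Leaving out 1 array gave 363 to 494 higher and 2267 (without DT replicate 1) to 3923 lower in DT, 1295 to 1910 higher and 303 (without DMSO replicate 2) to 580 lower in E, and 1165 to 1424 higher and 2342 to 3343 lower in DTE. It gave 4009 to 5536 and 350 to 521 for E minus DT, 1462 to 2196 and 473 (without DT replicate 2) to 777 for DTE minus DT, and 224 to 311 and 2132 (without DTE replicate 1) to 3372 for DTE minus E.

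Over 440 combinations of a named gene and a comparison, the alternatives that keep all arrays lost a call in 100 instances and gained one in 104, and leaving out 1 array lost one in 151 and gained one in 39. KDM5B in DT, at -0.00 as deposited, was the 1 value that turned and was called, at 0.36 after quantile normalization. Genes below the lower quartile of their group were not shown to lie above background.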
